A study of Caenorhabditis elegans with 16 samples.

Results

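B0507.6 (WBGene00015223), B0507.8 (WBGene00015225) and ddn-1 (WBGene00015227) are protein-coding genes that lie close together on chromosome V of Caenorhabditis elegans. They were chosen by identifier, as 3 of the 46904 genes in the count table, because they were among the strongest and most abundant responses in pals-22(jy3) and pals-25(jy111) animals. RNA from whole L4 larvae was sequenced in 16 libraries, 4 for each of 4 genotypes, with all worms raised at 20 °C on plates of E. coli OP50-1. The pals-22(jy3) animals have lost the function of pals-22 and were collected after 48 h of growth, whereas all other genotypes were collected after 44 h. The pals-25(jy111) animals carry a premature stop codon in pals-25, placed there by CRISPR/Cas9 and acting as a gain-of-function allele, in a backcrossed line. The double mutant, pals-22(jy3) pals-25(jy9), combines the same pals-22 allele with a pals-25 allele that removes its activity. WT animals, whose libraries are titled N2, carry none of these mutations. Each library is a pool of animals, and because whole worms were used, fewer cells with a transcript and less transcript per cell cannot be told apart.

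The intracellular pathogen response (IPR) is a transcriptional program that C. elegans switches on when microsporidia or the Orsay virus infect its intestine. The oomycete recognition response (ORR) is an overlapping program that follows exposure to oomycetes, which infect through the epidermis. PALS-22 and PALS-25 act as an OFF/ON switch for both programs, PALS-22 as the repressor and PALS-25 as the activator, so that worms without PALS-22 express these genes without any infection. B0507.6, B0507.8 and ddn-1 are each on the study's IPR list and on its ORR list. No molecular function is given for the products of the 3 genes in the sources used here.

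The counts of a library summed to between 14028579 and 34151410, with a median of 25854371. Gene counts do not read out the mutated alleles, so the level of pals-22 does not check the labels: it averaged 20.9 ± 2.81 CPM in pals-22(jy3) animals, 9.53 ± 0.675 in pals-25(jy111), 6.37 ± 0.753 in the double mutant and 4.25 ± 0.676 in WT (SD, n = 4 each). Markers of intestine, epidermis, muscle, neurons and germ line were detected in every group, with no marker of the 23 at 0 in any genotype. CPM are counts per 1e6 counts of the library total times its scaling factor, and RPKM are CPM per kilobase of the gene length in the file, which allows levels of different genes to be compared.

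In the WBcel235 assembly, B0507.6 runs from position 8746158 to 8750197 on the plus strand in 13 exons. ddn-1 runs from 8758820 to 8760516 on the minus strand in 6 exons, and B0507.8 from 8760622 to 8762961, also on the minus strand, in 9 exons. ddn-1 and B0507.8 are thus direct neighbours on the same strand. A gene for a small piRNA, 21ur-14767, lies within ddn-1 on the same strand and had no count in any library. The 3 genes span 16804 bases, and B0507.6 is separated from the other pair by 5 annotated genes.

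B0507.6 had 83.7, 123, 102 and 114 RPKM in the pals-22(jy3) libraries and 33.6, 35.2, 36.4 and 32.6 RPKM in the pals-25(jy111) libraries. The same gene had 0.166, 0.250, 0.274 and 0.197 RPKM in the double mutant libraries and 0.306, 0.288, 0.228 and 0.123 RPKM in the WT libraries, which are 9, 11, 17 and 11 counts in the double mutant and 9, 16, 12 and 6 counts in WT. All pals-22(jy3) libraries lay above all pals-25(jy111) libraries, both lay far above the remaining genotypes, and the double mutant and WT ranges overlapped.

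B0507.8 had 1363, 1766, 1632 and 1698 RPKM in pals-22(jy3) libraries and 583, 524, 543 and 505 RPKM in pals-25(jy111) libraries. It was close to undetected elsewhere, with 0.276, 0.567, 0.295 and 0.388 RPKM in double mutant libraries and 0.113, 0.150, 0.0632 and 0.136 RPKM in WT libraries. Those low levels rest on 9, 15, 11 and 13 counts in the double mutant and on 2, 5, 2 and 4 counts in WT, and no library of one genotype overlapped with any other genotype.

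ddn-1 was the most abundant of the 3 genes, with 1896, 2235, 2107 and 2219 RPKM in pals-22(jy3) libraries and 792, 692, 703 and 660.4 RPKM in pals-25(jy111) libraries. In the double mutant libraries it had 1.91, 1.96, 1.51 and 0.772 RPKM and in the WT libraries 0.908, 1.12, 0.958 and 0.516 RPKM, from 70, 58, 63 and 29 counts in the double mutant and 18, 42, 34 and 17 counts in WT. The double mutant and WT ranges overlapped through the fourth replicate, which was the lowest library of both genotypes.

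**Figure D1:**
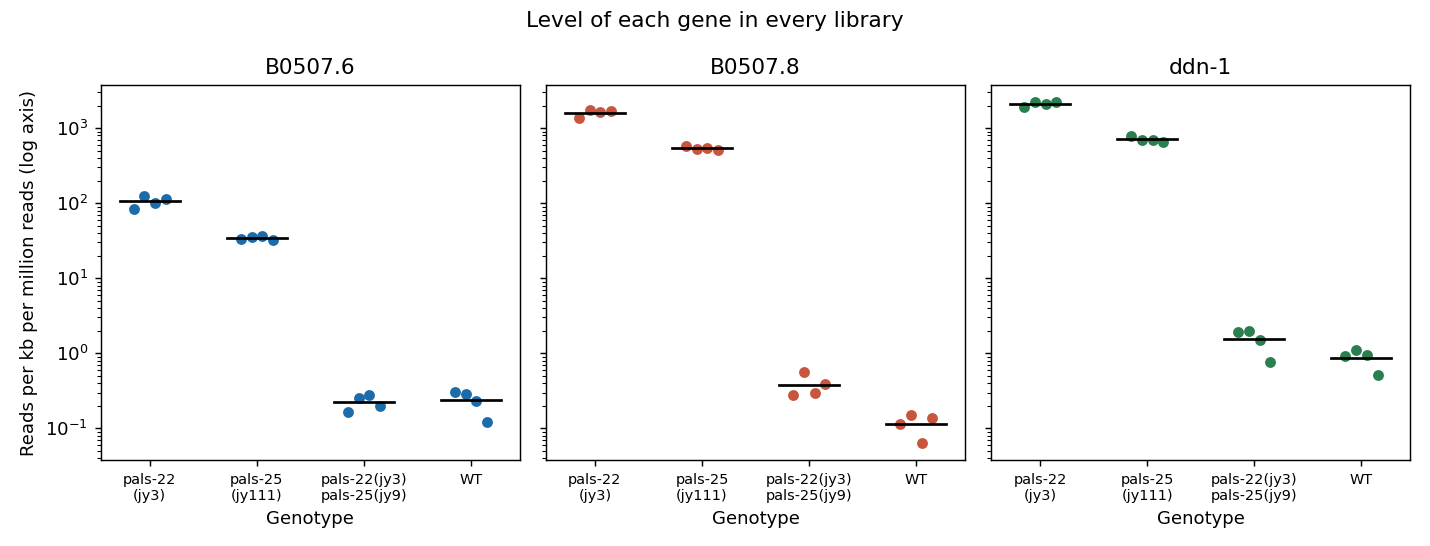
Level of B0507.6, B0507.8 and ddn-1 in each of 16 libraries, in RPKM on a log axis, with the genotypes along the x axis. Points are libraries and bars are the means of 4. The pals-22(jy3) points are highest for each gene (for ddn-1, 1896 to 2235 RPKM), pals-25(jy111) points lie below them (660.4 to 792 RPKM for ddn-1), and double mutant and WT points lie under 2 RPKM.

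On average ddn-1 was present at 2114 ± 156 RPKM in pals-22(jy3), 712 ± 56.6 in pals-25(jy111), 1.54 ± 0.548 in the double mutant and 0.876 ± 0.257 in WT (SD, n = 4 each). B0507.8 averaged 1615 ± 177 RPKM in pals-22(jy3), 539 ± 33.3 in pals-25(jy111), 0.381 ± 0.133 in the double mutant and 0.115 ± 0.0380 in WT. B0507.6 averaged 106 ± 17.02 RPKM in pals-22(jy3), 34.5 ± 1.69 in pals-25(jy111), 0.222 ± 0.0492 in the double mutant and 0.236 ± 0.0826 in WT. The order of the genotype means was therefore the same for ddn-1 and B0507.8, whereas for B0507.6 the double mutant and WT did not differ beyond their spread. The double mutant and WT libraries overlapped for ddn-1 as well as for B0507.6, and lay apart only for B0507.8.

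Ranked by CPM among the 22405 genes with a count in pals-22(jy3), ddn-1 was at rank 13, B0507.8 at rank 38 and B0507.6 at rank 809. In pals-25(jy111) the ranks were 163, 244 and 2332 of 21809 genes, while in WT they were 13012, 16273 and 14514 of 21404. By RPKM, the ranks of ddn-1, B0507.8 and B0507.6 were 59, 90 and 1117 in pals-22(jy3) and 209, 263 and 2916 in pals-25(jy111). Together the 3 genes took between 0.484% and 0.590% of all counts of a pals-22(jy3) library and between 0.167% and 0.200% of a pals-25(jy111) library. In the double mutant their share was at most 0.000390% and in WT at most 0.000237%. Within the 80 genes of the IPR list, they made up 29.9% of the summed CPM in pals-22(jy3), 47.2% in pals-25(jy111), 0.686% in the double mutant and 0.329% in WT. ddn-1 and B0507.8 were the first and second genes of that list by CPM in both pals-22(jy3) and pals-25(jy111), and B0507.6 was at rank 21 in pals-22(jy3) and rank 9 in pals-25(jy111). By RPKM, ddn-1, B0507.8 and B0507.6 were at ranks 2, 4 and 37 of the list in pals-22(jy3) and 2, 3 and 18 in pals-25(jy111).

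The contrasts of the activated genotypes with WT and with the double mutant chose these genes, so their size is given as a description, with no test. A gene was called when edgeR's quasi-likelihood test gave a Benjamini-Hochberg adjusted p under 0.05 and a log2 fold change beyond 2. All 3 genes lay past these limits in pals-22(jy3) against WT, where 3.1% of the 14803 genes tested were called higher, and in pals-25(jy111) against WT, where 1.17% of 14671 were. The same held for pals-22(jy3) against the double mutant (3.19% of 14878) and for pals-25(jy111) against the double mutant (1.27% of 14743), and nothing is read from these counts.

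The fold changes of the 3 genes differed widely, and so did their order by level and by fold change. B0507.8 passed the filter on low counts against WT through the mutant libraries alone. B0507.8 had a log2 fold change of 13.65 (SE 0.21) in pals-22(jy3) against WT and 12.14 (SE 0.17) in pals-25(jy111) against WT, which correspond to ratios of mean CPM of 13984 and 4664. For ddn-1 the values were 11.15 (SE 0.25) and 9.66 (SE 0.23), and for B0507.6 they were 8.74 (SE 0.25) and 7.21 (SE 0.20). Among the 459 genes called higher in pals-22(jy3) against WT, B0507.8 was at rank 8 by fold change, ddn-1 at rank 38 and B0507.6 at rank 101. By CPM the order was another, with ddn-1 first, B0507.8 second and B0507.6 at rank 28. By RPKM, ddn-1 was at rank 2, B0507.8 at rank 3 and B0507.6 at rank 57. The 171 genes called higher in pals-25(jy111) against WT gave ranks of 3, 14 and 50 by fold change for B0507.8, ddn-1 and B0507.6.

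Set against the double mutant in place of WT, the fold changes of B0507.8 were smaller, and its double mutant level exceeded its WT level. Its log2 fold change was 12.02 (SE 0.28) for pals-22(jy3) and 10.51 (SE 0.24) for pals-25(jy111). ddn-1 had 10.39 (SE 0.35) and 8.90 (SE 0.33), and B0507.6 had 8.84 (SE 0.22) and 7.30 (SE 0.15). All these comparisons share the libraries of the activated genotypes with those against WT.

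**Figure D2:**
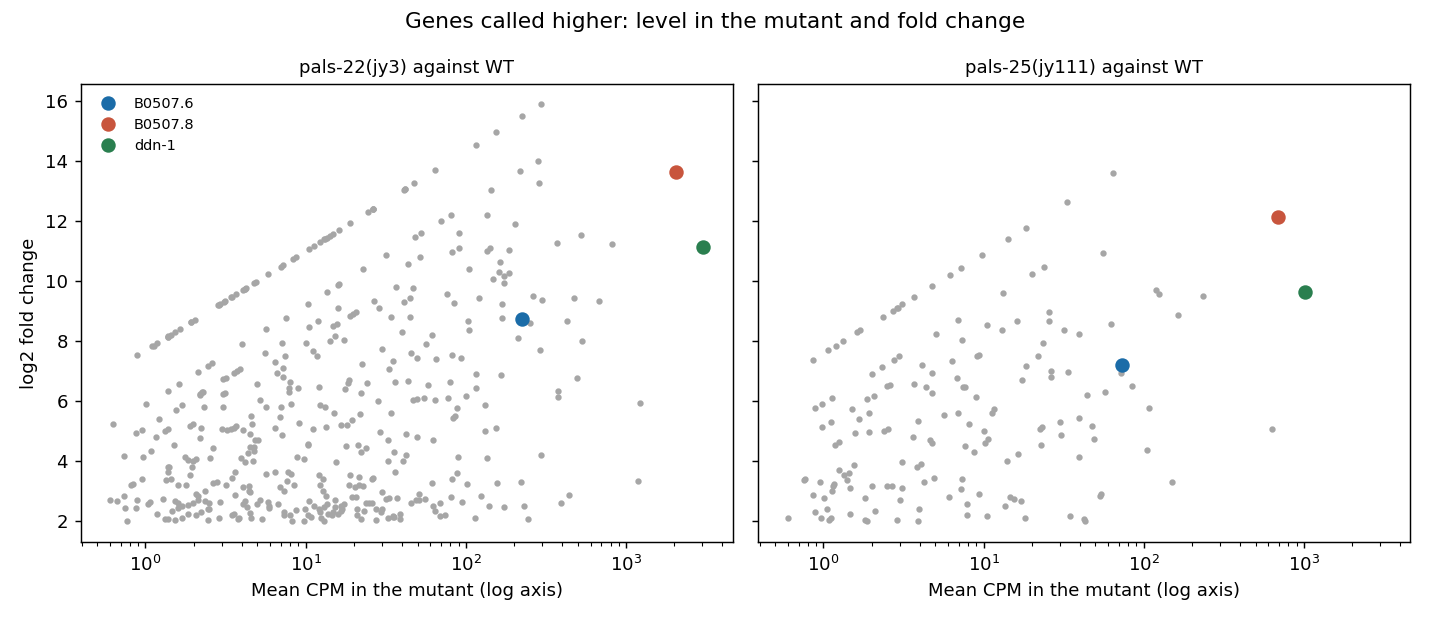
Genes called higher in pals-22(jy3) against WT (left, 459 genes) and in pals-25(jy111) against WT (right, 171 genes), by mean CPM in the mutant (log axis) and log2 fold change. Each point is a gene, with the 3 genes described here in colour and all others in grey; the sloping upper edge is made of genes with next to no count in WT, whose fitted fold change depends on the prior count. ddn-1 and B0507.8 stand at the right edge, as the 2 called genes with the highest mean CPM in each genotype.

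Whether loss of pals-25 activity in the pals-22 mutant background returned the 3 genes to their WT level is addressed by the double mutant against WT. These libraries also entered the contrasts that chose the genes. B0507.6 had 0.470 ± 0.104 CPM in the double mutant and 0.501 ± 0.175 CPM in WT (SD, n = 4 each), a log2 fold change of -0.11 (edgeR, SE 0.32, adjusted p = 0.864). ddn-1 had 2.20 ± 0.784 CPM in the double mutant and 1.25 ± 0.367 CPM in WT, a log2 fold change of 0.75 (edgeR, SE 0.34, adjusted p = 0.193), in a comparison where 0.144% of the 14551 genes tested were called higher and 0.763% lower. Neither gene passed by edgeR, DESeq2 or limma-voom, and at an unadjusted p under 0.05 edgeR and limma-voom gave 0 of both genes and DESeq2 gave 1.

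B0507.8 did not reach the minimum of 0.5 CPM in 4 libraries in this comparison and was not among the genes tested. It had 48 counts over the double mutant libraries and 13 over the WT libraries, a ratio of 3.19 with a 95% exact interval of 1.70 to 6.41, which covers counting error only. Each double mutant library lay above each WT library, and an exact permutation test of the CPM (two-sided) gave p = 0.0286, the smallest that 4 libraries against 4 allow. Fitted without the filter, its log2 fold change was 1.62 with an edgeR adjusted p of 0.0660, so the difference did not pass the correction over all genes. For ddn-1, the ratio of summed counts in the double mutant to those in WT was 1.71 (95% exact interval 1.36 to 2.17), and its permutation p was 0.114.

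In pals-22(jy3) all 3 genes were about 3 times as abundant as in pals-25(jy111), and they differed by almost the same factor. The libraries of both genotypes also entered the contrasts that chose the genes, so the adjusted p-values are given with that limit. B0507.6 averaged 224 ± 36.1 CPM in pals-22(jy3) animals and 73.1 ± 3.59 CPM in pals-25(jy111) (SD, n = 4 each), a log2 fold change of 1.55 (edgeR, SE 0.12, adjusted p = 0.000147). B0507.8 averaged 2060.2 ± 225 CPM in pals-22(jy3) animals and 687 ± 42.5 CPM in pals-25(jy111), with 1.53 (edgeR, SE 0.09, adjusted p = 3.96e-05). ddn-1 averaged 3024 ± 223 CPM in pals-22(jy3) animals and 1018 ± 81.0 CPM in pals-25(jy111), with 1.51 (edgeR, SE 0.08, adjusted p = 2.04e-05). The lowest pals-22(jy3) library lay above the highest pals-25(jy111) library for each gene, 178 against 77.3 CPM for B0507.6, 1739 against 744 CPM for B0507.8 and 2712 against 1133 CPM for ddn-1.

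All 3 genes rose by the adjusted p alone, as did 7.47% of the 14847 genes tested, and none reached the log2 fold change of 2 that a call needs, which 1.91% of genes did. By fold change they stood next to each other, at ranks 403 (B0507.6), 412 (B0507.8) and 417 (ddn-1) of all genes tested. Growth time goes with genotype in this comparison (48 h in pals-22(jy3) and 44 h in pals-25(jy111)), and growth time and genotype cannot be told apart. The summed CPM of the adult-stage markers col-19, vit-2 and vit-6 was 1505 to 3099.7 in pals-22(jy3) libraries and 514 to 827 in pals-25(jy111) libraries, against 42.3 to 835 in double mutant and 606 to 948 in WT libraries. Of the 23 markers, elt-2, ifb-2 and vit-6 were higher and ges-1 was lower by adjusted p (7.47% and 6.11% of all genes) in pals-22(jy3) against pals-25(jy111), by log2 fold changes of 0.90, 0.91, 1.56 and -0.83, and their part in the difference of the 3 genes was not tested.

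The proportions between the 3 genes were alike in both activated genotypes. Per gene length, the ratio of ddn-1 to B0507.8 was 1.31 ± 0.0544 in pals-22(jy3) and 1.32 ± 0.0278 in pals-25(jy111) (SD, n = 4 each), and differed by less than the spread between libraries (exact permutation p = 0.800, two-sided). The ratio of ddn-1 to B0507.6 was 20.3 ± 1.91 in pals-22(jy3) and 20.7 ± 1.96 in pals-25(jy111) (exact permutation p = 0.743). B0507.8 was 15.4 ± 0.920 times B0507.6 in pals-22(jy3) and 15.7 ± 1.16 times in pals-25(jy111) (exact permutation p = 0.83). Adjusted over these 3 ratios, each p was 0.83.

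In the other genotypes the proportions were different and spread more widely. The ratio of ddn-1 to B0507.8 ranged over libraries from 1.99 to 6.94 in the double mutant and from 3.79 to 15.2 in WT, both above the highest value of 1.39 in either activated genotype. ddn-1 was 3.91 to 11.5 times B0507.6 in the double mutant and 2.97 to 4.204 times in WT, below the lowest value of 18.2 in the activated genotypes. B0507.8, at least 14.3 times B0507.6 in any activated library, was 1.08 to 2.27 times B0507.6 in the double mutant and 0.277 to 1.11 times in WT. Since the genes were chosen for their fold changes, and since WT ratios rest on 2 to 5 counts of B0507.8 per library, these ranges are a description.

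**Figure D3:**
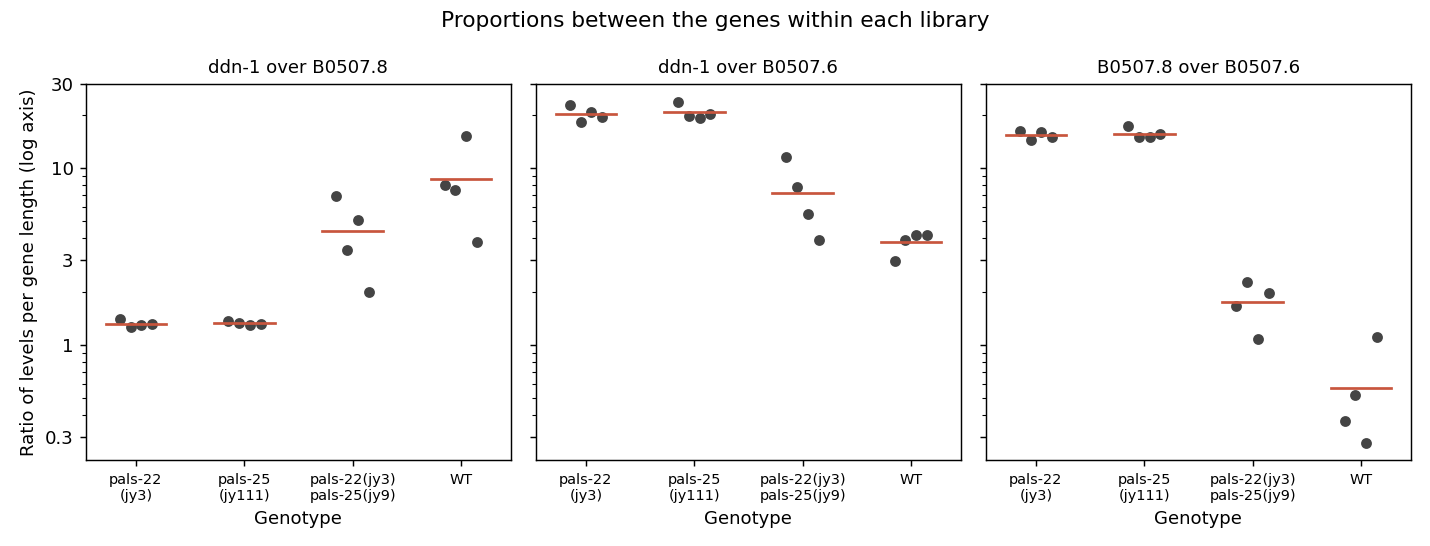
Ratio of the level per gene length of ddn-1 to B0507.8 (left), ddn-1 to B0507.6 (middle) and B0507.8 to B0507.6 (right) within each of 16 libraries, on a log axis, by genotype. Points are libraries and bars are means of 4. The pals-22(jy3) and pals-25(jy111) points coincide (means of 1.31 and 1.32, 20.3 and 20.7, and 15.4 and 15.7), and the double mutant and WT points lie apart from them.

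The surrounding genes, taken by position alone, were examined next. The count table holds 14 further genes with a B0507 sequence name and 11 other genes annotated within 25 kb of the span of the 3 genes, 25 in all. In pals-22(jy3) against WT, 17 of these 25 passed the filter on low counts and 12 of them rose past the call threshold, against 3.1% of all genes tested. The median log2 fold change of the 17 was 7.08 and their range was -0.48 to 11.52. In pals-25(jy111) against WT, 15 passed the filter and 10 rose, against 1.17% of all genes tested, with a median of 5.32 and a range of -0.05 to 9.85. Because a gene silent in WT passes the filter only where the mutant expresses it, these counts over genes that passed are a description.

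Immediately left of ddn-1, on the same strand and 101 bases away, B0507.7, another gene of both lists, rose by a log2 fold change of 9.57 (edgeR, SE 0.43, adjusted p = 2.39e-06) in pals-22(jy3) against WT and by 8.39 (edgeR, SE 0.44, adjusted p = 1.28e-05) in pals-25(jy111) against WT. Its mean level was 76.0 CPM in pals-22(jy3), 31.8 in pals-25(jy111), 0.199 in the double mutant and 0.0803 in WT, well under that of ddn-1. On the other side of B0507.8, 1991 bases away, B0507.9 rose by 6.49 (edgeR, SE 0.53, adjusted p = 7.08e-05) in pals-22(jy3) and by 4.82 (edgeR, SE 0.54, adjusted p = 0.00163) in pals-25(jy111) against WT. B0507.9 is on the IPR list only. Neither B0507.7 nor B0507.9 reached 0.5 CPM in any WT library. Both passed the filter through the mutant libraries alone, so their adjusted p-values are a description.

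Between B0507.6 and B0507.7 lie 4 genes that had at most 1 count over the WT libraries. B0507.15, annotated as a pseudogene, had 1761 counts in pals-22(jy3), 496 in pals-25(jy111) and none in WT, so that it was at least 415-fold higher in pals-22(jy3) and at least 140-fold higher in pals-25(jy111) against a floor of 3 counts over the WT libraries. B0507.5 had 452 counts in pals-22(jy3) and 89 in pals-25(jy111) (at least 108-fold and 25.3-fold higher), and B0507.4 had 424 and 52 (at least 101-fold and 15.4-fold higher, although the gene did not pass the filter in pals-25(jy111)). The pseudogene B0507.17 had 1954 counts in pals-22(jy3), 719 in pals-25(jy111) and 1 in WT. None of these 4 is on the IPR or the ORR list.

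To the left of B0507.6, 5 genes on the plus strand also rose in both activated genotypes. ZC196.1, an annotated pseudogene 1112 bases from B0507.6, rose by a log2 fold change of 7.08 in pals-22(jy3) and 5.62 in pals-25(jy111) against WT. ZC196.2 rose by 8.32 and 7.51 and ZC196.4 by 6.11 and 5.32 in the same comparisons. ZC196.3 stood out by its unequal response, with 7.74 in pals-22(jy3) and 3.39 in pals-25(jy111). droe-8, a gene of both lists, rose by 9.50 in pals-22(jy3) and 8.89 in pals-25(jy111). The edgeR adjusted p of these 5 genes was at most 0.00269 in either comparison. However, droe-8, ZC196.1, ZC196.2 and ZC196.3 reached 0.5 CPM in no WT library. They passed the filter through the mutant libraries alone, so their adjusted p-values are a description. ZC196.9, whose end overlaps droe-8 on the opposite strand, rose by 3.20 in pals-22(jy3) against WT (edgeR adjusted p = 0.000197), and is uncertain because no source used here states whether the counting used strand. ZC196.9 also passed the filter through the pals-22(jy3) libraries alone.

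Not every gene of the window was called. ZC196.5, between droe-8 and ZC196.4, had a log2 fold change of 1.88 in pals-22(jy3) and 0.86 in pals-25(jy111) against WT and was not called, although it is on the ORR list. To the right of B0507.9, B0507.3 had 0.97 and 0.27, B0507.2 had 0.46 and -0.05, B0507.1 had -0.48 and 0.10, and sup-37 had 0.26 and 0.27, none of them called. By adjusted p alone, 15 of the 17 tested neighbours were higher in pals-22(jy3) against WT (9.97% of all genes), among them ZC196.5 (adjusted p = 3.68e-05), B0507.3 (adjusted p = 0.0130) and B0507.2 (adjusted p = 0.0200), and 11 of 15 in pals-25(jy111) against WT (2.33%), among them ZC196.5 (adjusted p = 0.0197). B0507.2 and B0507.1 overlap on the same strand, so that their counts are uncertain. The long noncoding gene linc-69, the chemoreceptor gene srx-115 and the remaining small noncoding genes had too few counts to be tested.

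**Figure D4:**
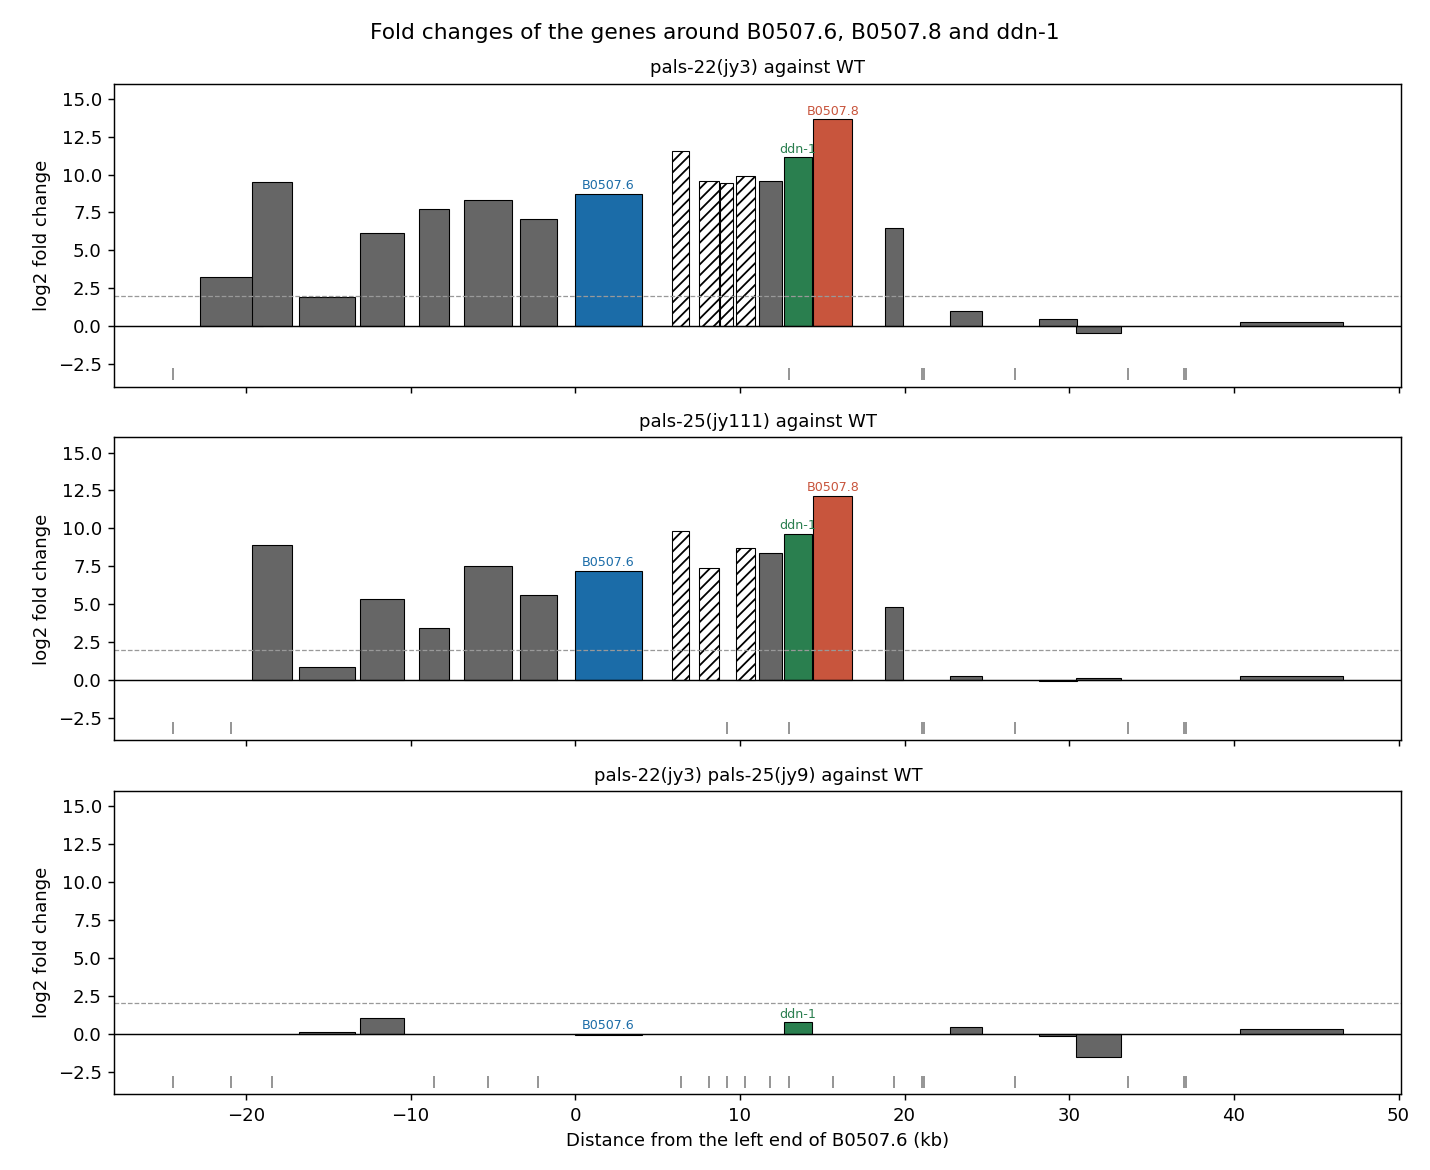
log2 fold change of each tested gene around B0507.6, B0507.8 and ddn-1 in pals-22(jy3), pals-25(jy111) and the double mutant, each against WT, by distance from the left end of B0507.6 in kb. Each bar spans a gene, hatched bars are genes with fewer than 3 counts over the WT libraries, whose bar height depends on the prior count, short ticks at the bottom are genes not tested, and the dashed line marks a log2 fold change of 2. In both activated genotypes all tested genes from ZC196.4 to B0507.9 have bars past the line (ddn-1 at 11.15 and 9.66). B0507.4, within that stretch, was not tested in pals-25(jy111). Further left ZC196.5 lies under the line and droe-8 past it, and in the double mutant no bar reaches the line.

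Against the double mutant in place of WT, the same 12 genes as against WT rose in pals-22(jy3) (3.19% of all genes), with a median log2 fold change of 7.31 over 17 tested genes. In pals-25(jy111), 10 of 15 tested rose against the double mutant (1.27% of all genes), with a median of 5.25. With the replicate number as a block, B0507.5 did not pass in pals-25(jy111) against the double mutant (edgeR adjusted p = 0.0579), which leaves 9. Most of the genes that rose reached 0.5 CPM in no double mutant library, so these counts over genes that passed are a description. In the double mutant against WT, edgeR called none of the 6 neighbouring genes tested, and neither DESeq2 nor limma-voom called any. By unadjusted p under 0.05, edgeR gave 2 of the 6 genes, DESeq2 3 and limma-voom 2. ZC196.4 had 1.58 ± 0.231 CPM in the double mutant and 0.746 ± 0.254 CPM in WT, a log2 fold change of 1.02 (edgeR, SE 0.29, adjusted p = 0.0619), and its adjusted p ranged from 0.0110 to 0.0899 over 6 alternative fits. B0507.1, to the right of the genes that rose, had 4.004 ± 1.66 CPM in the double mutant and 11.6 ± 4.08 CPM in WT, a log2 fold change of -1.56 (edgeR, SE 0.36, adjusted p = 0.0367), and was lower by adjusted p alone, like 6.07% of all genes. Its adjusted p ranged from 0.0355 to 0.101 when single libraries were left out, and it was under 0.05 only without double mutant replicate 1.

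In pals-22(jy3) against pals-25(jy111), 15 of the 17 neighbouring genes tested were higher by adjusted p alone (7.47% of all genes) and 4 of 17 were called (1.91% of all genes). Of the 15, B0507.3 (adjusted p = 0.0478) and B0507.2 (adjusted p = 0.0269) did not pass by edgeR in some of the fits that left out 1 library. ZC196.3 had the largest difference at the locus, with 29.8 ± 8.76 CPM in pals-22(jy3) animals and 1.40 ± 0.247 CPM in pals-25(jy111) (SD, n = 4 each), a log2 fold change of 4.35 (edgeR, SE 0.26, adjusted p = 3.70e-05). B0507.4 had 2.65 (edgeR, SE 0.42, adjusted p = 0.00527), ZC196.9 had 2.21 (edgeR, SE 0.30, adjusted p = 0.00248) and B0507.5 had 2.03 (edgeR, SE 0.23, adjusted p = 0.00102). ZC196.9 reached 0.5 CPM in no pals-25(jy111) library and passed the filter through pals-22(jy3) alone, so its adjusted p is a description. The value of B0507.4 rested on 52 counts over the pals-25(jy111) libraries. The call of B0507.5 sat at the fold threshold, and its log2 fold change was 1.92 without pals-25(jy111) replicate 1, 1.98 without pals-25(jy111) replicate 3 and 1.99 without pals-22(jy3) replicate 2. droe-8 had the smallest difference among the responding genes, 0.63 (edgeR, SE 0.11, adjusted p = 0.00776).

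**Figure D5:**
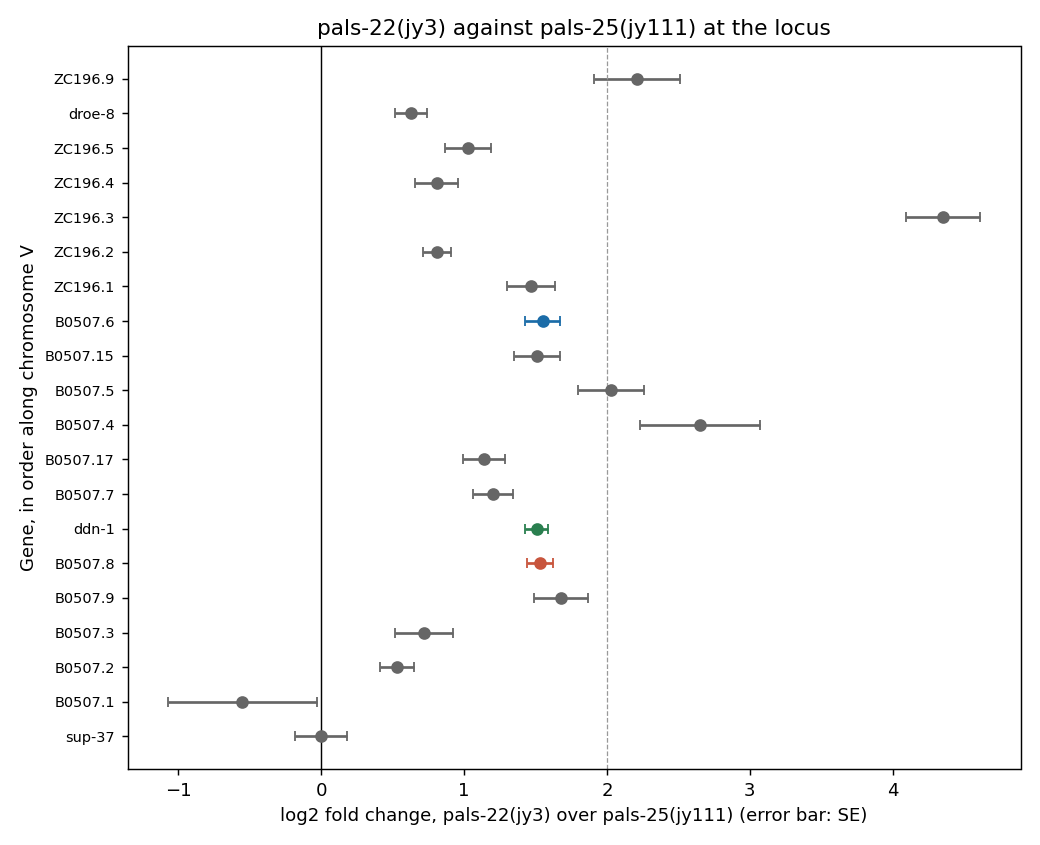
log2 fold change for each of 20 genes tested at the locus, pals-22(jy3) divided by pals-25(jy111), in order along chromosome V from top to bottom, with bars of 1 SE and a dashed line at 2. B0507.6, ddn-1 and B0507.8 (coloured) lie together at 1.55, 1.51 and 1.53, whereas the grey neighbours range from -0.55 for B0507.1 to 4.35 for ZC196.3.

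Relative to ddn-1 within the same library, the 12 responding neighbours divided into groups. ZC196.3 was higher in pals-22(jy3) than in pals-25(jy111) by 2.82 on the log2 scale, B0507.4 by 1.34 and ZC196.9 by 0.71, with no overlap between libraries of the genotypes, which was true of 1.2% of all genes with counts in each library. droe-8 was lower relative to ddn-1 by 0.87, ZC196.2 by 0.70 and ZC196.4 by 0.69, also with no overlap, where 83.8% of all genes were lower in this sense because ddn-1 itself differed. The remaining 6, among them B0507.7, B0507.9 and B0507.15, overlapped. Each of the 6 differences without overlap had an exact permutation p of 0.0286 (two-sided, the smallest possible) and an adjusted p of 0.0571 over the 12 genes, so none passed the correction.

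Adjacent tested genes called higher formed a run that held B0507.6, ddn-1 and B0507.8, with 12 genes from ZC196.4 to B0507.9 over 32933 bases in pals-25(jy111) against WT and 13 genes over the same stretch in pals-22(jy3) against WT. Both lengths count the 3 genes themselves, which these contrasts chose, and genes silent in WT that passed the filter through the mutant libraries, so they are a description. Other runs included 9 genes from pals-2 to pals-14 on chromosome I in pals-25(jy111) against WT, as many as the 9 genes besides the 3 in the run described here, and 14 genes from pals-2 to pals-15 in pals-22(jy3) against WT.

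The genes whose levels followed each of the 3 most closely were taken as the 5 with the highest Pearson correlation of log2(CPM + 0.5) over the 16 libraries, among 15213 genes. The libraries fall into genotypes that share these correlations, so they are given as a description. ddn-1 and B0507.8 were each among the other's 5 (r = 0.998), and pals-33, a gene of the pals family, was among the 5 of all 3 genes. B0507.8 was also followed by vsra-1, F26D11.13 and droe-8, and ddn-1 by B0507.7, vsra-1 and eol-1. B0507.6 had none of the locus among its 5, which were C53A5.9, Y6E2A.7, Y6E2A.5, Y2H9A.6 and pals-33, and B0507.8 and ddn-1 were at ranks 12 and 14 for it (r = 0.997). Ranked by Spearman's rho, 0 of the 5 genes for B0507.6, 1 of 5 for B0507.8 and 1 of 5 for ddn-1 were the same, so the order of likeness depends on the measure.

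The place of the 3 genes within the study's lists differed by gene, list and comparison. Of the 41 genes on both lists, 41 were called higher in pals-22(jy3) against WT (3.1% of all genes) and 36 of 37 tested in pals-25(jy111) against WT (1.17%), with median log2 fold changes of 9.57 and 6.73. The 41 include the 3 genes themselves. Only 12 of the 41 passed the filter in the double mutant against WT, so these counts over genes that passed are a description. By fold change from the highest, B0507.8 was at rank 6, ddn-1 at rank 13 and B0507.6 at rank 28 of 41 in pals-22(jy3) against WT, and at ranks 2, 7 and 16 of 37 in pals-25(jy111) against WT. In pals-22(jy3) against pals-25(jy111) all 41 were higher by adjusted p (7.47% of all genes), with a median of 2.32, and B0507.6, B0507.8 and ddn-1 took ranks 31, 32 and 33 from the highest. The median of the IPR list in that comparison was 2.98 over 79 genes tested, of which 54 were called higher (1.91% of all genes), and the 3 genes took ranks 62 to 64. On the ORR list the median was 0.63 over 177 genes tested, and the 3 genes lay above it, at ranks 50 to 52. The study compared its data with these lists, and it describes the IPR list as published earlier. It also describes the genes of both lists as mostly falling within those regulated by pals-22 and pals-25.

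The regulators and effectors of the pathway, a list of 15 genes, mostly had smaller fold changes against WT than the 3 genes. In pals-22(jy3) against pals-25(jy111) their fold changes lay on both sides of those of the 3 genes. zip-1, which encodes a bZIP transcription factor needed for part of the IPR, had 139 ± 16.1 CPM in pals-22(jy3), 67.4 ± 2.67 in pals-25(jy111), 22.4 ± 2.48 in the double mutant and 23.2 ± 2.31 in WT (SD, n = 4 each), and rose by log2 fold changes of 2.51 (edgeR, SE 0.11, adjusted p = 2.27e-06) in pals-22(jy3) and 1.54 (edgeR, SE 0.08, adjusted p = 9.07e-06) in pals-25(jy111) against WT. cul-6, a cullin of an IPR ubiquitin ligase, rose by 2.73 and 1.68 in the same comparisons (edgeR adjusted p = 4.71e-05 and 0.000558). Of the 15 genes, 9 were called higher in pals-22(jy3) against WT (3.1% of all genes, list median 2.22) and 1 of 13 tested in pals-25(jy111) against WT (1.17% of all genes, list median 1.26), while by adjusted p alone 14 and 10 were higher, against 9.97% and 2.33% of all genes. In pals-22(jy3) against pals-25(jy111) 5 of 15 were called (1.91% of all genes) and 12 were higher by adjusted p alone (7.47%), with a median of 0.99. Of these 5, pals-20 and fbxa-75 reached 0.5 CPM in no pals-25(jy111) library. The called genes lay above the 1.51 to 1.55 of the 3 genes, with log2 fold changes of 4.29 for the Skp1-related gene skr-5, 3.63 for the F-box gene fbxa-158, 2.85 for skr-4 and 2.77 for pals-20, and with 219 ± 47.3 CPM in pals-22(jy3) animals and 0.00797 CPM in pals-25(jy111) for fbxa-75, whereas zip-1 had 0.99 (edgeR, SE 0.09, adjusted p = 0.000236) and cul-6 had 1.07 (edgeR, SE 0.15, adjusted p = 0.00260).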

How the data were processed

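The authors deposited raw counts per gene, made with featureCounts from paired-end reads mapped to WS235 by Rsubread. The sources used here give neither versions nor how strand and multiply mapped reads were handled. The combined table and the 16 single-library files hold identical counts. Symbols and positions came from a gene name table and the Ensembl annotation of WBcel235.

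Each comparison was fitted on its 8 libraries with edgeR 4.0.16 in R 4.3.3 (TMM scaling, quasi-likelihood test, Benjamini-Hochberg adjustment), keeping genes that reached 0.5 CPM in 4 or more libraries. The thresholds are those of the study, which used limma-voom. SE is the absolute log2 fold change over the square root of F. CPM and RPKM used TMM factors over 16 libraries. DESeq2 1.42.0 and limma 3.58.1 served as alternatives. On simulated counts, 98.5% (double mutant against WT) and 95.5% (pals-22(jy3) against pals-25(jy111)) of 200 genes changed 8-fold were recovered. The changed genes were drawn from those with a higher mean CPM than B0507.6 and B0507.8 had in the double mutant and WT. The recovery therefore does not cover these genes in that comparison, nor changes under 8-fold.

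The labels number the replicates 1 to 4 without naming cultures, so p-values measure the spread between these libraries. No replicate pair agreed within sampling noise. Same-numbered libraries deviated together in 4 of 6 comparisons, with correlations of at least 0.12, which was taken as pairing. The main fits and the permutation tests did not use this pairing, and their p-values treat the libraries as unpaired. It entered only through the alternative fit with the replicate number as a block. The 3 genes, the neighbours and the lists were chosen with earlier results of these data known. Named genes were the 3 members, all genes with a B0507 name or within 25 kb, the mutated genes, a pathway list and the 5 nearest patterns.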

Additional observations from a re-analysis of the deposited data

Results flagged for a closer look

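In 75 sets of 4 libraries, each a gene of the locus in a genotype, 4 held a library whose gap to its nearest neighbour exceeded Dixon's 95% critical value for 4 samples, and chance gives about 1 in 20 such sets. Among the pals-22(jy3) libraries, ZC196.1 was lowest in one with 25.1 CPM and B0507.9 was highest in one with 15.1 CPM. The other sets were at the limit of detection, with B0507.15 at 0.0342 CPM in a double mutant library and B0507.17 at 0.0434 CPM in a WT library, each a single count where the remaining libraries had none.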

How the results depend on the processing

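B0507.6, B0507.8 and ddn-1 stayed higher in pals-22(jy3) than in pals-25(jy111) under each of 6 alternatives (log2 fold changes of 1.51 to 1.62, adjusted p at most 0.000209) and with each library left out (1.48 to 1.71). In the double mutant against WT, B0507.6 ranged from -0.34 to 0.03 without single libraries and changed sign without WT replicate 2 (0.03) and without double mutant replicate 1 (0.01), and ddn-1 ranged from 0.56 to 0.97 (adjusted p 0.0594 to 0.385). ddn-1 had an adjusted p of 0.0536 to 0.260 under the 6 alternatives. With the replicate block, ddn-1 had 0.73 and B0507.6 had -0.08 in that comparison, and the block changed no call at the locus other than that of B0507.5 in pals-25(jy111) against the double mutant.

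Counts over all genes moved more. In the double mutant against WT, 80 genes were called higher by DESeq2, 50 in a single fit over 16 libraries and 48 with the replicate block, against 21, and 3 to 41 were without single libraries, while 43 to 190 were called lower. In pals-25(jy111) against the double mutant, 78 genes were called lower by DESeq2, 80 in a single fit and 87 with the replicate block, against 25, and 8 to 41 without single libraries. In pals-25(jy111) against WT, 5 to 13 were called lower without single libraries, against 12. Of the B0507 neighbours, 1 or 2 were called in pals-22(jy3) against pals-25(jy111). The cause of these shifts was not tested. At 2 to 42 counts per library, the WT levels of the 3 genes limit the precision of every fold change against WT.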
